A study of Mus musculus with 35 samples.

Results

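The comparison is of the mouse brain hemisphere 24 h after middle cerebral artery occlusion (MCAO) with the hemisphere 24 h after sham surgery, both in mice that lack the beta2 adrenergic receptor. Its members were chosen by their labels and are 10 of the 35 arrays of the series. They are 7 arrays of knockout MCAO mice, with RNA from the hemisphere on the occluded side, and 3 arrays of knockout sham mice, with RNA from the same side. Every operated mouse in the series was male, and the wild type strain is FVB. Arrays of wild type mice after the same operations, 7 MCAO and 3 sham, shared the fit with the knockout arrays and gave the wild type change. Arrays of naive mice had a normalization of their own and were not used here. The labels give neither the construction of the knockout nor the length of the occlusion. They also do not say whether each array holds 1 animal, so the p-values measure only the spread between arrays, which may be technical.

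MCAO closes the artery that feeds the lateral cortex and the striatum, and it is a common rodent model of ischaemic stroke. The beta2 adrenergic receptor binds adrenaline and noradrenaline and raises cyclic AMP through a stimulatory G protein in neurons, glia, vessel cells and immune cells. In the first days after such an occlusion, neurons in the territory die, astrocytes and microglia become reactive, and stress, cytokine, clotting and matrix genes are known to be induced.

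The RNA came from a whole hemisphere, so fewer cells of a type and less RNA per cell cannot be told apart. The labelled tissue was checked against markers of brain cells, given as mean log2 signal. Of 8 neuron markers, the lowest was Nefm at 11.12 in the knockout MCAO arrays and 11.34 in the knockout sham arrays, and the highest was Snap25 at 13.76 in the knockout MCAO arrays and 13.91 in the knockout sham arrays. Mbp of myelin averaged 13.93 in the knockout MCAO arrays and 13.86 in the knockout sham arrays. All of these are far above the median signal of the arrays, as brain tissue requires.

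The limma test was applied to 18193 genes and a gene counts as called where its p, adjusted by Benjamini and Hochberg's method, was under 0.05. Changes are log2 differences, knockout MCAO minus knockout sham. In all, 4545 genes (25.0%) were called: 2925 (16.1%) were higher and 1620 (8.90%) were lower in knockout MCAO hemispheres. The median change over all genes was -0.0045, and the counts and medians of the gene groups are to be read against these values. In 2846 genes (15.6%) all MCAO arrays lay above all sham arrays and in 1669 (9.17%) below them. Past 2-fold, 460 genes (2.53%) rose and 25 genes (0.137%) fell. The call was kept without each of the 10 knockout arrays in turn for 1539 genes that rose (8.46%) and 323 that fell (1.78%). The count was most dependent on the sham arrays, with 2433 genes called without sham array 2 and 2337 without sham array 3.

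The arrays of the groups also differed in technical measures. The interquartile range of an array's log2 values was 3.67 ± 0.116 over the knockout MCAO arrays and 3.38 ± 0.0478 over the knockout sham arrays (SD, n = 7 and 3), with no overlap between the groups (exact two-sided permutation p = 0.0167, the smallest p that 7 against 3 arrays allow). The actin 3′ minus 5′ signal, a measure of RNA or labelling quality, was 1.01 ± 0.521 in the knockout MCAO arrays and 1.66 ± 0.0827 in the knockout sham arrays (exact permutation p = 0.0667). The same measure for Gapdh was 0.102 ± 0.525 in the knockout MCAO arrays, with array 5 at 1.18, and -0.263 ± 0.0138 in the knockout sham arrays (exact permutation p = 0.0333), and the median log2 value was 6.37 ± 0.03 in the knockout MCAO arrays and 6.41 ± 0.00843 in the knockout sham arrays (exact permutation p = 0.05). After adjustment over the 4 measures these p-values were 0.0666 to 0.0667. With the range of each array as a covariate, called here the range-adjusted fit and added after the data were seen, 1663 genes were called, 1025 of them higher and 638 lower. Its counts are given with the gene groups, and the part of the range in any result was not otherwise tested. MCAO arrays 1 and 6, and 2 and 5, lay close together, with a standard deviation of their differences over genes of 0.147 and 0.157, against 0.285 to 0.496 for the other pairs of knockout MCAO arrays and 0.205 to 0.264 for pairs of knockout sham arrays. The labels give these as separate arrays and they were kept so; with each pair, and a like pair of wild type MCAO arrays, averaged, 3988 genes were called.

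The direction of change moved with the signal level of the genes, as the plot of the median change by signal bin shows. With genes in 4 equal bins by mean signal, the dimmest bin had a median change of -0.16, with 73 genes higher and 620 lower. In the brightest bin it was 0.14, with 1199 higher and 195 lower. In the range-adjusted fit the medians of these bins were -0.0035 and -0.0087. An array's range widens when bright genes rise and dim genes fall, and it did not overlap between the groups, so medians near 0 after adjusting for it say nothing of a cause.

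**Figure D1:**
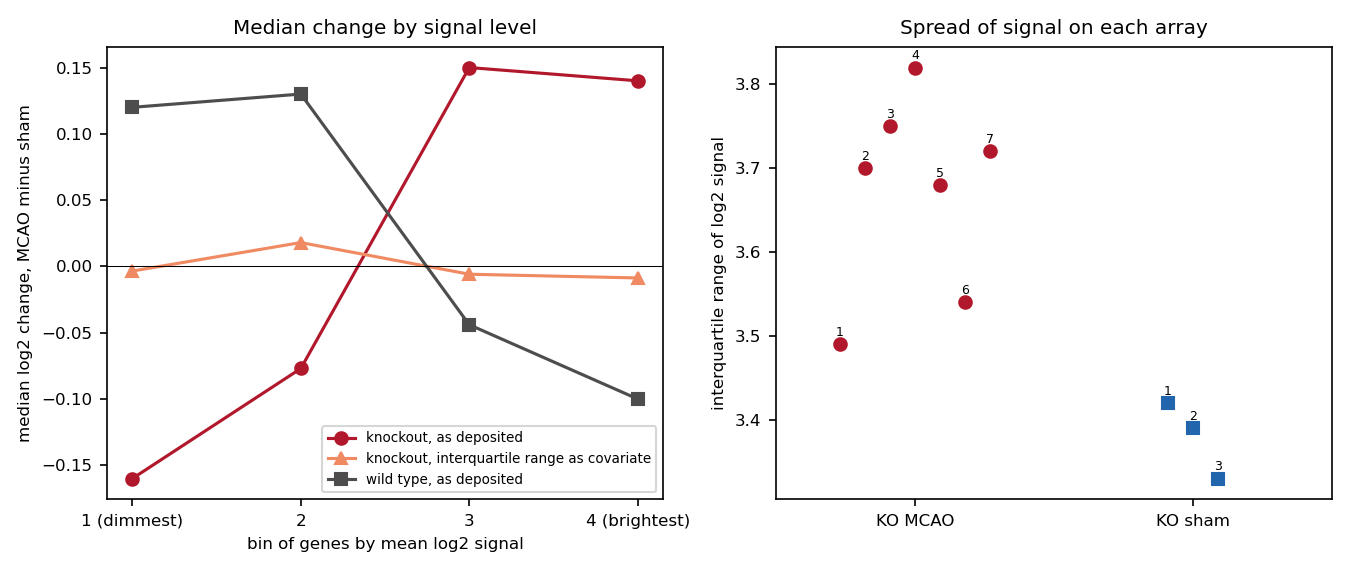
Left, median log2 change (MCAO minus sham) of genes in 4 bins by mean signal for the knockout, the knockout in the range-adjusted fit and wild type; right, the interquartile range of log2 signal on each knockout MCAO and knockout sham array, with array numbers. The knockout median runs from -0.16 in the dimmest bin to 0.14 in the brightest, and the range is 3.49 to 3.82 in MCAO arrays, against 3.33 to 3.42 in sham arrays.

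The heat shock chaperones, which refold or hold damaged proteins, held 3 of the largest rises. Hspa1a, an inducible HSP70, had log2 signals of 9.68, 11.18 and 12.02 in the knockout MCAO hemispheres, against 6.77, 6.89 and 7.004 in the knockout sham hemispheres (lowest, median and highest of 7 arrays, then each of 3 arrays). Every knockout MCAO array lay far above every sham array, and the change was 4.05 (SE 0.41, adjusted p = 1.45e-06). Hspb1, the small chaperone HSP27 that also guards actin filaments, had 12.37, 12.77 and 13.34 in the knockout MCAO hemispheres, against 8.84, 8.75 and 8.79 in the knockout sham hemispheres. The sham arrays of Hspb1 were nearly alike, the groups did not overlap, and the change was 4.05 (SE 0.21, adjusted p = 1.07e-10), or 16.6-fold. Hspa1b, the neighbouring near-identical copy of Hspa1a, had 11.72, 12.30 and 13.13 in the knockout MCAO hemispheres, against 8.998, 8.10 and 8.08 in the knockout sham hemispheres, and its change was 3.95 (SE 0.30, adjusted p = 3.15e-08). Transcripts of Hspa1a and Hspa1b may bind each other's probes, so their separate values are uncertain.

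The promoters of these 3 genes, which rose most among the chaperones, are shown because heat shock factor 1 is known to bind inverted GAA units in chaperone promoters. Each is 300 bases from RefSeq on GRCm38.p6, 250 before and 50 after the transcription start, read on the gene's strand from 5′ to 3′. The capitals mark GAANNTTC, the core of a heat shock element, which reads the same on both strands. Hspa1a lies on the minus strand at chr17:34972107-34972406, Hspb1 on the plus strand at chr5:135887669-135887968, and Hspa1b on the minus strand at chr17:34959189-34959488.
Hspa1a: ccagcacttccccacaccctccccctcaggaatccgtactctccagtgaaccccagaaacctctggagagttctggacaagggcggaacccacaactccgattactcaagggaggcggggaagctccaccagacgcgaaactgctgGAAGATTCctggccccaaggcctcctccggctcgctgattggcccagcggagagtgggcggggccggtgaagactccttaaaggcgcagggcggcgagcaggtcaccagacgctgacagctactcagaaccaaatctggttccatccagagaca
Hspb1: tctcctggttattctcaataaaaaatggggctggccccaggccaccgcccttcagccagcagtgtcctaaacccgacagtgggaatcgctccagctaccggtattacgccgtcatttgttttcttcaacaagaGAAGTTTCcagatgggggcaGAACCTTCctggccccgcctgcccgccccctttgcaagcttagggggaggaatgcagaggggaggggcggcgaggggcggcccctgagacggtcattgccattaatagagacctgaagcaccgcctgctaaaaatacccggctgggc
Hspa1b: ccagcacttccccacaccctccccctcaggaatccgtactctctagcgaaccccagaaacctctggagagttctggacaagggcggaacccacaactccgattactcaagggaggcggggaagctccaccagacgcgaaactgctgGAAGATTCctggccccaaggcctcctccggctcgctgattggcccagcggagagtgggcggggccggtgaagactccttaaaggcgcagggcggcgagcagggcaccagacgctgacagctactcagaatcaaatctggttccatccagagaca

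The Hspa1a and Hspa1b promoters were the same at 296 of 300 bases and each held 1 match, its first base at -104 from the start. The Hspb1 promoter held 2 matches, at -117 and -97. GAANNTTC was present in 7.86% of the 32851 RefSeq promoters of this length. None of the 3 promoters held TGACNNNGC, an antioxidant element core (in 12.4% of all promoters on either strand), TTCNNNGAA, a STAT core (8.30%), or TGACGTCA, the cyclic AMP element (1.79%). A match is a string of letters and was not tested as a binding site, and a missing match says only that these letters are not in the window.

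Of 19 measured heat shock chaperones, 11 rose and 0 fell (median change 0.43), and 9 of the rises were kept without each knockout array in turn. The range-adjusted fit called 7 of them higher. Bag3, which hands clients of HSP70 to autophagy, rose by 1.59 (SE 0.22, adjusted p = 3.36e-05), with a lowest MCAO value of 8.54 and a highest sham value of 7.68. Hspa4, an HSP70-like nucleotide exchange factor, rose by 1.11 (SE 0.13, adjusted p = 7.59e-06); its call ended when all probe sets of the gene were averaged (0.32, adjusted p = 0.262). The mitochondrial chaperonins Hspd1 and Hspe1 rose by 0.86 and 0.88.

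**Figure D2:**
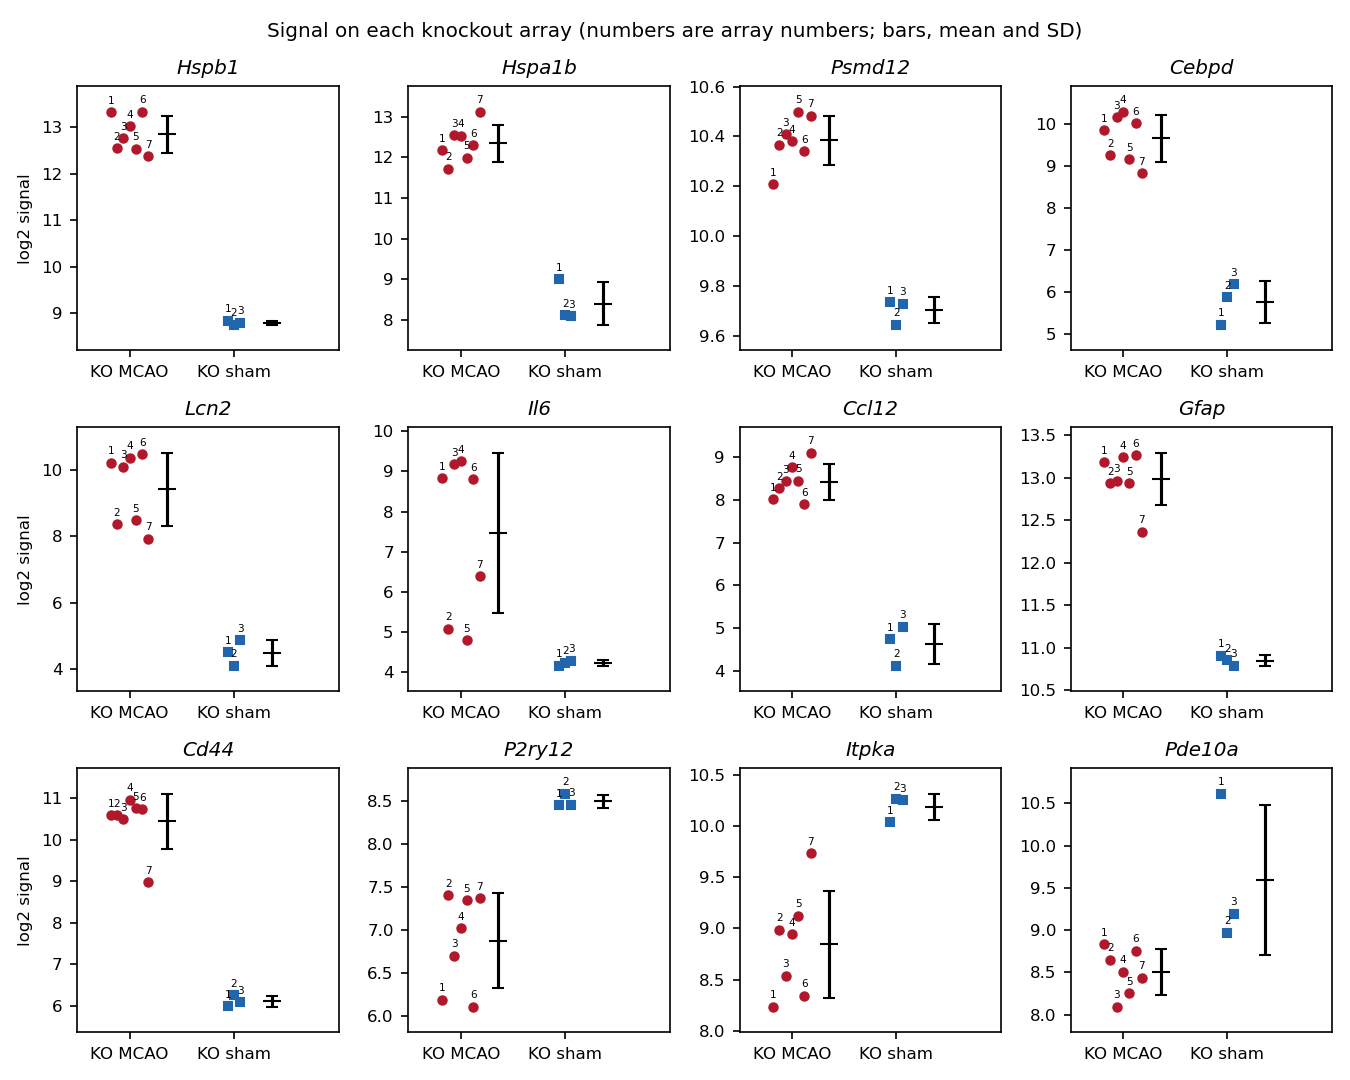
Log2 signal of 12 genes on each array, with the 7 knockout MCAO arrays left of the 3 knockout sham arrays, points numbered by array, and the mean and SD of each group beside them. Hspb1 lies between 12.37 and 13.34 in the MCAO arrays and between 8.75 and 8.84 in the sham arrays, while P2ry12 lies between 6.11 and 7.41 in the MCAO arrays and between 8.45 and 8.59 in the sham arrays.

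Of 21 endoplasmic reticulum stress and ATF4 target genes, 11 rose and 0 fell (median 0.43; 8 higher in the range-adjusted fit). Atf5, a stress-induced transcription factor, rose by 0.89 (SE 0.14, adjusted p = 0.000124). Manf, a secreted chaperone with trophic activity, had 10.42, 10.56 and 10.81 in the knockout MCAO hemispheres, against 10.12, 9.83 and 9.79 in the knockout sham hemispheres. The groups did not overlap and Manf rose by 0.67 (SE 0.11, adjusted p = 0.000218). Dnajb9, a co-chaperone of BiP, rose by 0.72 (SE 0.12, adjusted p = 0.000219) and Creld2, a disulphide isomerase of the reticulum, by 0.59 (SE 0.12, adjusted p = 0.00105). Hspa5, which encodes BiP itself, rose by 0.70.

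Of 17 proteasome and ubiquitin genes, 15 rose and 0 fell (median 0.48), and 13 of the rises were kept without each knockout array in turn. These changes were small and the count fell to 6 in the range-adjusted fit. Psmd2, a subunit of the regulatory particle, had 11.68, 11.72 and 11.92 in the knockout MCAO hemispheres, against 11.36, 11.22 and 11.25 in the knockout sham hemispheres. Its MCAO values lay in a narrow band just above the sham values, and the change was 0.48 (SE 0.08, adjusted p = 0.000236). Psmd12, also of the regulatory particle, rose by 0.68 (SE 0.09, adjusted p = 3.4e-05), and the ATPase subunits Psmc4 and Psmc6 rose by 0.68 and 0.55. Psma1 and Psmb6 of the core particle rose by 0.52 and 0.46.

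Of 21 translation and ribosome biogenesis genes, 16 rose and 0 fell (median 0.59; 9 higher in the range-adjusted fit). Ddx21, a nucleolar RNA helicase, had 8.06, 8.36 and 8.66 in the knockout MCAO hemispheres, against 7.14, 7.29 and 6.70 in the knockout sham hemispheres. The lowest MCAO value stood above all sham values, and Ddx21 rose by 1.32 (SE 0.15, adjusted p = 6.75e-06). Eif4ebp1, which holds back cap-dependent initiation, rose by 1.29 (SE 0.14, adjusted p = 3.38e-06). The nucleolar proteins Gnl3 and Npm1 rose by 0.78 (SE 0.09, adjusted p = 3.94e-06) and by 0.86 (SE 0.11, adjusted p = 1.59e-05), and Eif2s2, the beta subunit of eIF2, rose by 0.80 (SE 0.11, adjusted p = 2.63e-05).

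Hmox1, haem oxygenase 1 of the oxidative stress response, had 8.58, 10.27 and 10.78 in the knockout MCAO hemispheres, against 6.58, 6.12 and 6.68 in the knockout sham hemispheres. The MCAO arrays were spread over more than 2 log2 units, yet the lowest was above all sham arrays, and the change was 3.38 (SE 0.36, adjusted p = 2.45e-06). Of 13 such genes 10 rose and 0 fell (median 0.74; 7 kept without each knockout array, 6 higher in the range-adjusted fit). Srxn1, which repairs oxidized peroxiredoxins, rose by 1.44 (SE 0.10, adjusted p = 1.58e-08). The metallothioneins Mt2 and Mt1, which bind zinc and copper, rose by 1.85 (SE 0.14, adjusted p = 2.62e-08) and by 1.34 (SE 0.10, adjusted p = 2.62e-08). Txnrd1, thioredoxin reductase, rose by 1.29 (SE 0.15, adjusted p = 6.43e-06), and its call ended when all probe sets of the gene were averaged (0.40, adjusted p = 0.239).

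Among hypoxia, glycolysis and iron genes, 7 of 23 rose and 1, Ankrd37, fell (median 0.16; 5 higher and 1 lower in the range-adjusted fit). The number that rose was 4 without sham array 2 and 4 without sham array 3, and the fall of Ankrd37 was lost without sham array 1 or 3. The count includes Lcn2, lipocalin 2, an iron-siderophore carrier secreted by reactive astrocytes, with the largest rise of any gene. Lcn2 had 7.92, 10.09 and 10.46 in the knockout MCAO hemispheres, against 4.52, 4.10 and 4.88 in the knockout sham hemispheres. All MCAO arrays were above the sham arrays, 3 of them lying lower than the other 4, and the change was 4.91 (SE 0.47, adjusted p = 7.68e-07), or 30.1-fold. Hk2, an inducible hexokinase, rose by 1.61 (SE 0.17, adjusted p = 2.71e-06), ceruloplasmin (Cp), a ferroxidase, by 1.86 (SE 0.24, adjusted p = 2.36e-05), and Slc2a1, the glucose transporter of the blood-brain barrier, by 1.13 (SE 0.27, adjusted p = 0.00458). The other 15 genes of the group, Vegfa, the vessel growth factor, and the enzymes Hk1, Aldoa and Ldha among them, did not pass the test.

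Of 20 transcription factors known from injury responses, 15 rose and 1, Runx1, fell (median 1.3; 12 rises kept without each knockout array, 12 higher in the range-adjusted fit). The fall of Runx1 was not called without sham array 3. Cebpd, a factor induced by cytokines in astrocytes, had 8.82, 9.85 and 10.29 in the knockout MCAO hemispheres, against 5.21, 5.88 and 6.18 in the knockout sham hemispheres. The 3 sham arrays lay within about 1 log2 unit of each other, far below the MCAO arrays, and the change was 3.89 (SE 0.27, adjusted p = 9.35e-09). Cebpb rose by 2.03 (SE 0.25, adjusted p = 1.32e-05). Atf3, a marker of injured neurons, had 7.39, 8.99 and 9.51 in the knockout MCAO hemispheres, against 5.91, 6.10 and 5.82 in the knockout sham hemispheres, and it rose by 2.70 (SE 0.35, adjusted p = 2.28e-05). Csrnp1, an immediate early factor, rose by 1.42 (SE 0.20, adjusted p = 5.29e-05), and Klf4 and Myc rose by 2.45 and 1.28.

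Il6, interleukin 6, which signals through STAT3, had 4.79, 8.81 and 9.25 in the knockout MCAO hemispheres, against 4.15, 4.23 and 4.28 in the knockout sham hemispheres. The MCAO arrays spanned more than 4 log2 units, from a value just above the sham arrays to values far above them, and the change was 3.25 (SE 0.77, adjusted p = 0.00464). Il11, a related cytokine, rose by 2.48 (SE 0.64, adjusted p = 0.00846). The calls of both ended in the range-adjusted fit, at 2.84 for Il6 (adjusted p = 0.106) and 2.60 for Il11 (adjusted p = 0.0773). Osmr, the oncostatin M receptor subunit, had 9.11, 9.50 and 10.16 in the knockout MCAO hemispheres, against 5.83, 6.19 and 6.14 in the knockout sham hemispheres. These groups lay almost 3 log2 units apart at their nearest points, and Osmr rose by 3.54 (SE 0.25, adjusted p = 9.52e-09). Stat3 rose by 1.79 (SE 0.21, adjusted p = 6.51e-06), and Socs3, the feedback inhibitor that STAT3 induces, had 9.01, 9.88 and 10.22 in the knockout MCAO hemispheres, against 6.42, 6.88 and 7.10 in the knockout sham hemispheres, and it rose by 2.84 (SE 0.21, adjusted p = 2.3e-08). Of 16 genes of STAT3 feedback and receptors, 12 rose and 0 fell (median 0.81; 10 kept without each knockout array, 9 higher in the range-adjusted fit). They include Il4ra, the interleukin 4 receptor chain, with a change of 1.56 (SE 0.19, adjusted p = 8.6e-06), and Bcl3, a nuclear IkappaB protein, with 1.70 (SE 0.26, adjusted p = 0.000111).

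Of 17 growth factors and trophic cytokines 8 rose and 0 fell (median 0.7; 6 higher in the range-adjusted fit). Hbegf, a ligand of the EGF receptor, rose by 2.12 (SE 0.23, adjusted p = 3.7e-06) and Clcf1, a ligand of the CNTF receptor, by 1.98 (SE 0.25, adjusted p = 1.29e-05). Csf1, the microglial growth factor, rose by 1.10 (SE 0.18, adjusted p = 0.000246). Lif had 5.82, 8.18 and 8.51 in the knockout MCAO hemispheres, against 5.29, 5.90 and 5.75 in the knockout sham hemispheres. MCAO array 7 lay among the sham arrays of Lif and the other MCAO arrays above them, and the change was 1.94 (SE 0.38, adjusted p = 0.00111).

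Of 14 TNF receptor genes, 3 rose and 1, Tnfrsf25, fell (median 0.021, with 3 higher and 2 lower in the range-adjusted fit). As a share of the group these calls were close to the 25.0% of all genes that were called. The risers were Tnfrsf12a, the TWEAK receptor, with 2.04 (SE 0.23, adjusted p = 5.29e-06), Tnfrsf1a, the main TNF receptor, with 1.46 (SE 0.21, adjusted p = 6.42e-05), and Ltbr, the lymphotoxin receptor, with 1.17 (SE 0.18, adjusted p = 0.000105). The fall of Tnfrsf25 was not called without sham array 2 (-0.73, adjusted p = 0.0948), and 2 genes were called lower without MCAO array 1 or without MCAO array 6.

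Feedback genes of the ERK pathway rose in 7 of 15 and fell in 1, Dusp8 (median 0.48; 4 higher and 2 lower in the range-adjusted fit). Without sham array 3 the number higher was 4, and the fall of Dusp8 was not called without MCAO array 5 or any 1 sham array. Ier3, an early response gene, rose by 1.82 (SE 0.32, adjusted p = 0.000374), Errfi1, an inhibitor of the EGF receptor, by 1.27 (SE 0.23, adjusted p = 0.00054), and Spry1 by 0.53 (SE 0.11, adjusted p = 0.00183).

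Ccl12, a chemokine that draws monocytes, had 7.89, 8.43 and 9.10 in the knockout MCAO hemispheres, against 4.74, 4.13 and 5.04 in the knockout sham hemispheres. Its groups were separate by almost 3 log2 units, and the change was 3.78 (SE 0.37, adjusted p = 1.3e-06). Ccl3, a chemokine made by activated macrophages and microglia, had 6.73, 8.20 and 9.36 in the knockout MCAO hemispheres, against 4.31, 4.45 and 4.61 in the knockout sham hemispheres, and it rose by 3.57 (SE 0.38, adjusted p = 2.45e-06). Ccl9, Ccl6 and Ccl4 rose by 3.38, 2.09 and 1.40, with a wide spread of Ccl9 over the MCAO arrays (SD 1.13, n = 7). Ccl2 and Cxcl10 rose by 2.05 and 2.13. Of 20 chemokines, 9 rose, 0 fell and 11 did not pass (median 0.82; 8 kept without each knockout array, 7 higher in the range-adjusted fit).

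Of 21 genes of interleukin 1, TNF and NF-kappaB signalling, 11 rose and 1 fell (median 0.57; 7 higher in the range-adjusted fit). Cd14, the lipopolysaccharide co-receptor, had 9.19, 11.53 and 12.08 in the knockout MCAO hemispheres, against 7.01, 7.08 and 7.60 in the knockout sham hemispheres. The MCAO arrays were spread over almost 3 log2 units, all of them above the sham arrays, and the change was 3.54 (SE 0.54, adjusted p = 0.000113). Myd88, the adaptor of Toll-like and interleukin 1 receptors, rose by 1.78 (SE 0.20, adjusted p = 4.84e-06), Nfkbiz by 1.80 (SE 0.21, adjusted p = 7.59e-06), Il1r1 by 0.81 (SE 0.14, adjusted p = 0.000343) and the alarmin Il33 by 2.55 (SE 0.44, adjusted p = 0.000355). The gene that fell was Nfkb2, the p100 subunit, at -0.50 (SE 0.11, adjusted p = 0.00349). The remaining probe set of Nfkb2 was called higher, the mean of both gave 0.06 (adjusted p = 0.761), and the range-adjusted fit gave -0.36 (adjusted p = 0.126), so no direction can be given for Nfkb2.

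Interferon response genes rose in 17 of 22 and fell in 0 (median 0.81), but the number higher was 11 without sham array 2, 10 without sham array 3 and 8 in the range-adjusted fit. Ifitm3, a membrane protein that blocks virus entry, had 10.06, 11.08 and 11.50 in the knockout MCAO hemispheres, against 8.71, 8.12 and 8.54 in the knockout sham hemispheres. The groups did not overlap, and it rose by 2.37 (SE 0.26, adjusted p = 3.7e-06). The guanylate-binding protein gene Gbp2, a marker of reactive astrocytes, rose by 2.62 (SE 0.31, adjusted p = 6.67e-06). The GTPase gene Irgm1 rose by 1.43 (SE 0.18, adjusted p = 1.04e-05) and Ifi202b by 3.70 (SE 0.45, adjusted p = 9.17e-06).

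Of 14 prostanoid and arachidonic acid genes, 7 rose, while Ltc4s and Cyp4f18 fell (median 0.43). Without sham array 2 the number higher was 3, without sham array 3 the number lower was 0, and the range-adjusted fit called 1 higher. Ptgs2, cyclooxygenase 2, had 8.65, 8.78 and 9.29 in the knockout MCAO hemispheres, against 7.15, 7.03 and 6.47 in the knockout sham hemispheres. It was above the sham arrays in every MCAO array and rose by 2.07 (SE 0.30, adjusted p = 6.03e-05). Hpgd, which inactivates prostaglandins, rose by 1.76 (SE 0.34, adjusted p = 0.000936), a call that ended in the range-adjusted fit (1.39, adjusted p = 0.0636).

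**Figure D3:**
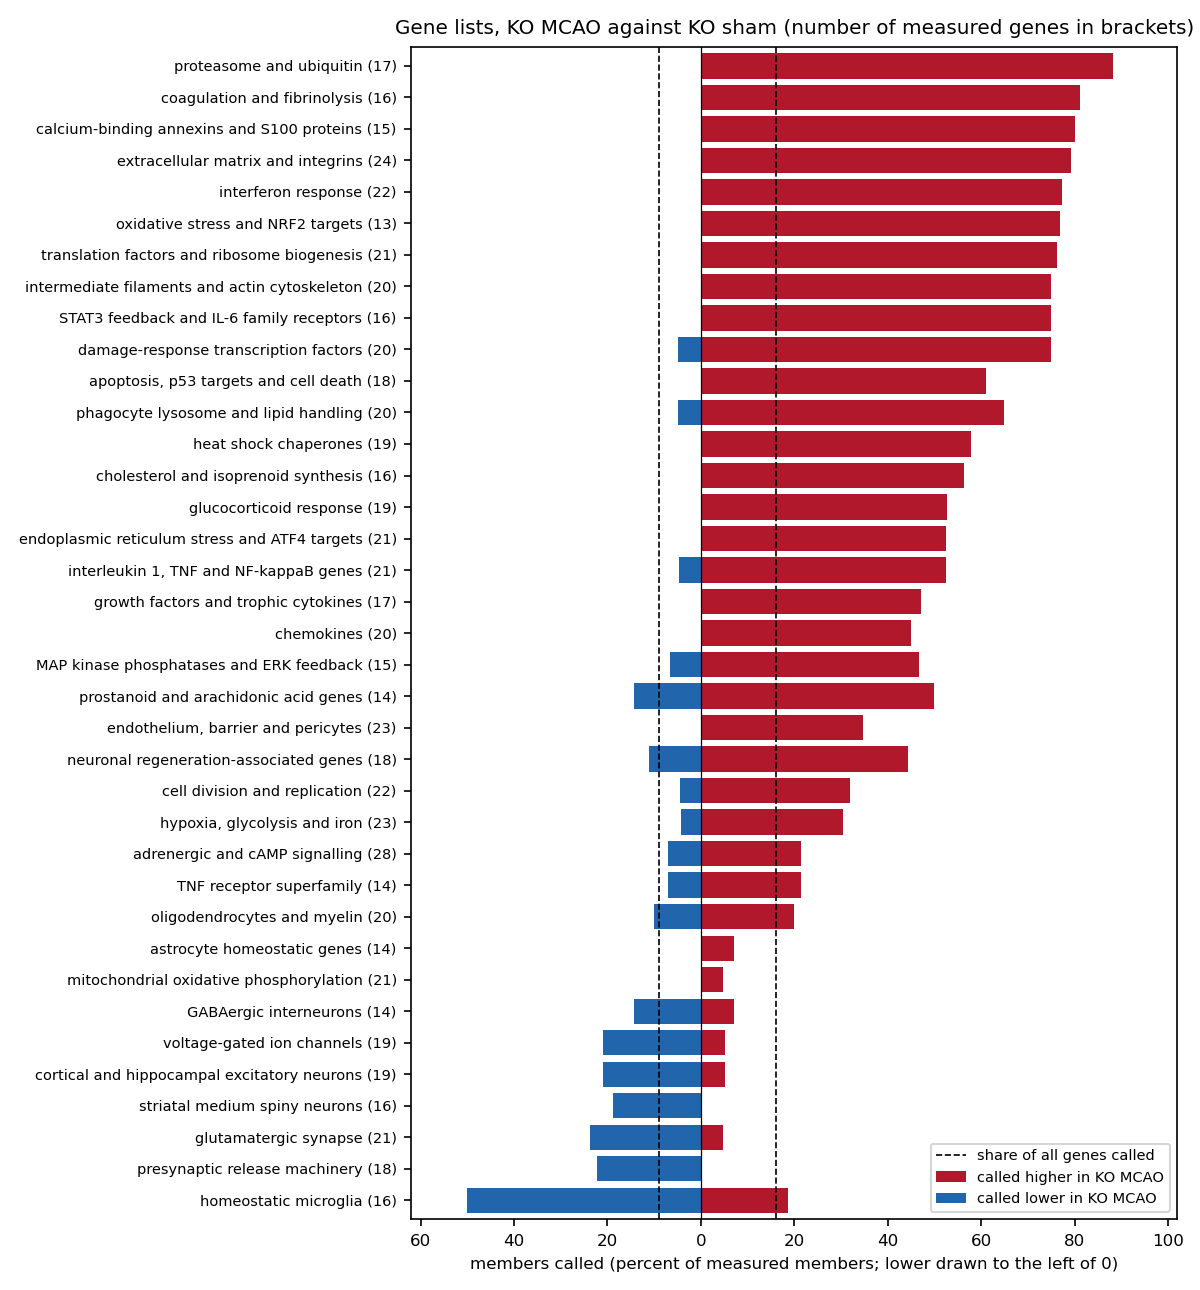
Percent of the measured members of each gene group called higher (right of 0) and lower (left of 0) in knockout MCAO against knockout sham hemispheres, with the number measured in parentheses and dashed lines at the share of all genes (16.1% higher, 8.90% lower). Extracellular matrix and integrins had 19 higher and 0 lower of 24, while homeostatic microglia had 3 higher and 8 lower of 16.

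Vim, the intermediate filament vimentin, had 11.21, 12.09 and 12.68 in the knockout MCAO hemispheres, against 9.03, 8.47 and 8.70 in the knockout sham hemispheres. The lowest MCAO array was over 2 log2 units above the highest sham array, and the change was 3.20 (SE 0.29, adjusted p = 3.97e-07). Gfap, the filament of reactive astrocytes, had 12.36, 12.97 and 13.27 in the knockout MCAO hemispheres, against 10.91, 10.86 and 10.79 in the knockout sham hemispheres, and it rose by 2.13 (SE 0.21, adjusted p = 1.41e-06). Of 20 filament and actin cytoskeleton genes, 15 rose and 0 fell (median 1.2; 12 kept without each knockout array, 13 higher in the range-adjusted fit). Among them Tubb6, a beta tubulin, rose by 2.80 (SE 0.32, adjusted p = 5.5e-06), Msn, a linker of actin to the membrane, by 2.55 (SE 0.26, adjusted p = 1.59e-06), and Cnn3, a calponin, by 1.54 (SE 0.14, adjusted p = 5.93e-07). Emp1, an epithelial membrane protein outside these groups, had 7.57, 9.64 and 10.03 in the knockout MCAO hemispheres, against 5.20, 5.13 and 4.16 in the knockout sham hemispheres, and it rose by 4.32 (SE 0.43, adjusted p = 1.45e-06).

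Annexins and S100 proteins, which bind calcium at membranes, rose in 12 of 15 and fell in 0 (median 1.4; 8 kept without each knockout array, 8 higher in the range-adjusted fit). Anxa2 had 9.62, 11.42 and 11.71 in the knockout MCAO hemispheres, against 8.28, 7.89 and 8.29 in the knockout sham hemispheres. Its partner S100a10 had 8.95, 9.97 and 10.07 in the knockout MCAO hemispheres, against 8.12, 8.14 and 8.11 in the knockout sham hemispheres. Both were above the sham range in every MCAO array, with changes of 2.81 (SE 0.32, adjusted p = 5.5e-06) and of 1.66 (SE 0.17, adjusted p = 1.52e-06). S100a6, Anxa3 and Anxa4 rose by 2.27, 2.17 and 1.28.

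Homeostatic genes of astrocytes, among them those that clear glutamate, potassium and water, were seldom called: of 14, 1 (Aldh1l1) rose and 0 fell (median -0.055). Aldh1l1 rose by 0.46, and that call was lost without sham array 2 or 3. In the range-adjusted fit 0 were higher and 1 lower.

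Of 24 matrix and integrin genes 19 rose and 0 fell (median 1.3; 13 kept without each knockout array, 11 higher in the range-adjusted fit). Cd44, the hyaluronan receptor, had 8.98, 10.60 and 10.97 in the knockout MCAO hemispheres, against 5.99, 6.25 and 6.08 in the knockout sham hemispheres. The groups lay over 2 log2 units apart, and the change was 4.35 (SE 0.29, adjusted p = 7.44e-09), although 1 of the 3 further probe sets of Cd44 was called lower. Timp1, an inhibitor of metalloproteinases, had 8.03, 10.35 and 10.87 in the knockout MCAO hemispheres, against 6.38, 6.66 and 6.23 in the knockout sham hemispheres, and it rose by 3.32 (SE 0.41, adjusted p = 1.13e-05). Mmp3, a metalloproteinase, had 6.81, 9.31 and 9.56 in the knockout MCAO hemispheres, against 4.63, 4.67 and 5.05 in the knockout sham hemispheres. MCAO arrays 2, 5 and 7 lay midway between the sham arrays and the other MCAO arrays, and Mmp3 rose by 3.62 (SE 0.54, adjusted p = 8.11e-05).

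Tenascin C (Tnc), a matrix protein of injured tissue, rose by 3.08 (SE 0.41, adjusted p = 2.8e-05), the protease Adamts1 by 2.54 (SE 0.30, adjusted p = 6.67e-06), and galectin 1 (Lgals1) by 2.08 (SE 0.29, adjusted p = 4.05e-05). Prg4, lubricin, was above the sham arrays in every MCAO array, by little in array 7 (6.59 in that array, against 5.95, 5.57 and 5.59 in the sham arrays), and rose by 3.65 (SE 0.68, adjusted p = 0.000671). The collagens of the vessel basement membrane, Col4a1 and Col4a2, rose by 1.70 and 1.20. Among the largest rises outside these groups were Ptx3, a long pentraxin that binds matrix and complement, at 3.34 (SE 0.51, adjusted p = 0.000115), and Tgm1, a transglutaminase, at 3.69 (SE 0.50, adjusted p = 3.4e-05).

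Of 16 clotting and fibrinolysis genes 13 rose and 0 fell (median 1.2; 9 kept without each knockout array, 8 higher in the range-adjusted fit). They included the initiator F3, tissue factor, with a change of 1.14 (SE 0.16, adjusted p = 3.47e-05), as well as the anticoagulants Thbd, thrombomodulin, with 2.63 (SE 0.38, adjusted p = 5.93e-05), and Pros1, protein S, with 2.002 (SE 0.20, adjusted p = 1.45e-06). Thbd had 7.27, 9.24 and 9.90 in the knockout MCAO hemispheres, against 6.41, 6.46 and 6.05 in the knockout sham hemispheres, with all MCAO arrays above the sham arrays. Von Willebrand factor (Vwf), which tethers platelets, rose by 1.53 (SE 0.21, adjusted p = 3.48e-05). Both Plat and Plaur of the plasminogen system rose, by 1.19 and 1.47.

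Of 23 endothelial, barrier and pericyte genes 8 rose and 0 fell (median 0.51; 6 higher in the range-adjusted fit). Icam1, the leukocyte adhesion molecule, had 6.57, 7.80 and 8.30 in the knockout MCAO hemispheres, against 5.55, 4.58 and 4.88 in the knockout sham hemispheres. It was above all sham arrays in each MCAO array and rose by 2.46 (SE 0.30, adjusted p = 1.12e-05). Ch25h, which makes 25-hydroxycholesterol, rose by 3.04 (SE 0.31, adjusted p = 1.61e-06). The junction genes Cdh5 and Pecam1 rose by 1.61 (SE 0.31, adjusted p = 0.000952) and by 1.31 (SE 0.26, adjusted p = 0.00131), and Pdgfrb of pericytes rose by 1.46 (SE 0.27, adjusted p = 0.000599).

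Markers of meninges and fibroblasts also rose, and their part in the matrix and vessel results was not tested. The marker and matrix groups share Col1a1, Col1a2 and Col3a1, and the rises of Col1a2 and Col3a1 are counted in both. Of 12 meninges and fibroblast markers 6 rose and 0 fell (median 0.64). The number that rose was 3 without sham array 1, 2 without sham array 2 and 2 in the range-adjusted fit. The mean of the markers relative to the sham mean was between -0.04 (array 7) and 1.26 (array 4) in the MCAO arrays and between -0.07 and 0.06 in the sham arrays. Mgp, matrix Gla protein, rose by 1.82 (SE 0.31, adjusted p = 0.000346), and Aldh1a2, which makes retinoic acid, by 1.90 (SE 0.45, adjusted p = 0.00463), the call of Aldh1a2 ending in the range-adjusted fit (1.18, adjusted p = 0.226). Choroid plexus markers were not called apart from F5, 1 of 11 (median 0.43), but 0 were called in the range-adjusted fit and 5 were called higher without MCAO array 7, in which their mean stood at -0.44 against 0.39 to 0.67 in the other MCAO arrays. Without sham array 2 or 3 limma called 0 choroid plexus markers, with 1 and 2 at an unadjusted p under 0.05.

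Lgals3, galectin 3, a lectin of phagocytes, had 7.00, 9.60 and 10.09 in the knockout MCAO hemispheres, against 5.49, 5.59 and 5.68 in the knockout sham hemispheres. MCAO arrays were widely spread and all above the sham arrays, with a change of 3.24 (SE 0.51, adjusted p = 0.000133). Of 20 phagocyte genes 13 rose and 1, Apoe, fell (median 0.69; 9 rises kept without each knockout array, 7 higher in the range-adjusted fit). Cd68, a lysosomal protein of macrophages, rose by 1.95 (SE 0.25, adjusted p = 2.11e-05), Lamp2 by 1.42 (SE 0.20, adjusted p = 5.66e-05), and the cathepsins Ctsl and Ctsz by 0.98 (SE 0.13, adjusted p = 3.23e-05) and by 1.51 (SE 0.23, adjusted p = 8.41e-05). Apoe fell by 0.51, and the call was lost without sham array 2 or 3, while 2 genes were called lower without MCAO array 1 or without sham array 1.

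Genes that mark resting microglia fell more often than they rose. P2ry12, the ADP receptor of microglial processes, had 6.11, 7.03 and 7.41 in the knockout MCAO hemispheres, against 8.45, 8.59 and 8.46 in the knockout sham hemispheres. Every MCAO array was below every sham array, and the change was -1.62 (SE 0.24, adjusted p = 8.1e-05). Of 16 genes of homeostatic microglia 8 fell and 3 rose (median -0.23), 6 of the falls were kept without each knockout array, and the range-adjusted fit called 7 lower and 1 higher. Selplg, a selectin ligand, had 7.14, 7.27 and 7.62 in the knockout MCAO hemispheres, against 8.36, 8.33 and 8.30 in the knockout sham hemispheres, with groups well apart, and fell by 0.97 (SE 0.13, adjusted p = 2.43e-05). Slc2a5, a fructose transporter, Siglech, a sialic acid receptor, and Crybb1 had changes of -0.89 (SE 0.14, adjusted p = 0.000208), -0.75 (SE 0.13, adjusted p = 0.000279) and of -0.71 (SE 0.11, adjusted p = 0.000114). Gpr34, a lysophospholipid receptor, had a change of -0.82 (SE 0.24, adjusted p = 0.0166), not called without sham array 1 (-0.73, adjusted p = 0.0736) or sham array 3 (-0.82, adjusted p = 0.0638).

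Gpr84 was counted in the homeostatic group but is a fatty acid receptor of activated microglia, so its rise is not that of a resting gene. It had 6.26, 6.60 and 6.93 in the knockout MCAO hemispheres, against 5.70, 5.36 and 5.71 in the knockout sham hemispheres. Its change was 0.96 (SE 0.14, adjusted p = 4.64e-05). The other rises in the group, Sall1 and Fcrls, left 1 gene higher without sham array 2 and 1 without sham array 3. The microglial marker Csf1r stood at 10.72 in knockout MCAO arrays and 10.64 in knockout sham arrays (means, n = 7 and 3).

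Markers of blood leukocytes had low signals. Of 16 neutrophil and monocyte markers, the mean signal lay between 4.12 (Mmp8) and 7.41 (S100a8) in the knockout MCAO arrays and between 4.08 (Chil3) and 7.18 (Ccr2) in the knockout sham arrays. S100a8 and S100a9 were called higher and Mpo, Camp, Itgal, Ltf and Fcnb lower (median -0.2, and 0.15 in the range-adjusted fit, which called 0 higher and 0 lower). S100a8 had 5.61, 8.03 and 9.09 in the knockout MCAO hemispheres, against 5.37, 4.97 and 5.59 in the knockout sham hemispheres. The lowest MCAO array was just above the highest sham array, and the change of 2.10 (SE 0.58, adjusted p = 0.0122) was not called without sham array 2 (1.93, adjusted p = 0.068). The rise of S100a9, its partner, was not called without MCAO array 1, 3, 4 or 6 or without any 1 sham array (adjusted p between 0.0531 and 0.133). All 5 lower calls were lost without sham array 3, where limma gave 5 markers with an unadjusted p under 0.05 in either direction; the range-adjusted fit gave 3. Lymphocyte markers fell in 3 of 11 (Cd4, Cd8a and Cd79a; median -0.3), with 1 called without sham array 2 and 0 in the range-adjusted fit of limma (2 at an unadjusted p under 0.05 in either direction).

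Genes of neurons fell in several groups, and some of these falls rested on single sham arrays. Of the 8 general neuron markers limma called 0 higher and 0 lower (median -0.18), and likewise in the range-adjusted fit. On repeated quantile normalization 2 were called lower, and 1 was called higher without MCAO array 7 or without sham array 1. Of 21 genes of the glutamatergic synapse 5 fell and 1, Cacng8, rose (median -0.37; 3 falls kept without each knockout array, 6 lower in the range-adjusted fit), and the rise of Cacng8 was lost without any 1 sham array. Itpka, a kinase of dendritic spines, had 8.23, 8.94 and 9.74 in the knockout MCAO hemispheres, against 10.04, 10.27 and 10.26 in the knockout sham hemispheres. All MCAO arrays were below the sham arrays, and the change was -1.34 (SE 0.29, adjusted p = 0.00198). Cacng3, an AMPA receptor subunit partner, had 8.33, 8.83 and 10.18 in the knockout MCAO hemispheres, against 10.11, 10.41 and 10.10 in the knockout sham hemispheres. MCAO array 7 lay within the sham range of Cacng3, the change was -1.18 (SE 0.28, adjusted p = 0.00439), and the call ended in the range-adjusted fit (-1.03, adjusted p = 0.102). Grm3, a metabotropic glutamate receptor, had a change of -0.69 (SE 0.15, adjusted p = 0.00189).

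Presynaptic release genes fell in 4 of 18 (median -0.19; 3 in the range-adjusted fit), with 2 called without sham array 2 and 2 without sham array 3. Cplx2, complexin 2, which clamps vesicle fusion, had 10.98, 11.42 and 11.66 in the knockout MCAO hemispheres, against 12.11, 12.08 and 12.09 in the knockout sham hemispheres. The sham arrays were nearly alike and above all MCAO arrays, and the change was -0.73 (SE 0.12, adjusted p = 0.000308). Stx1a, syntaxin 1A, had a change of -0.62 (SE 0.14, adjusted p = 0.00283), with its highest MCAO array level with the lowest sham array.

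Voltage-gated channels fell in 4 of 19, with Kcna1 the only rise (median -0.21; 8 lower in the range-adjusted fit). Without sham array 2 the number lower was 2, and the rise of Kcna1 was lost without sham array 2 or 3. Kcnip2, a partner of A-type potassium channels outside the group, lay between 9.47 and 10.29 in the knockout MCAO hemispheres, with a median of 9.91, and between 10.94 and 11.19 in the knockout sham hemispheres. The groups were well separate, with a change of -1.12 (SE 0.15, adjusted p = 3.62e-05). Kcnh3 and Kcnq3, potassium channels of forebrain neurons, had changes of -1.12 (SE 0.21, adjusted p = 0.000643) and of -0.54 (SE 0.14, adjusted p = 0.00709).

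The cortical and hippocampal genes fell in 4 of 19 and rose in 1 (median -0.14; 3 lower and 1 higher in the range-adjusted fit), with 2 lower without sham array 1 and 2 without sham array 2. Otof, otoferlin, had 6.01, 6.25 and 6.46 in the knockout MCAO hemispheres, against 7.29, 7.53 and 7.91 in the knockout sham hemispheres, with every MCAO array below the sham arrays, and fell by 1.29 (SE 0.16, adjusted p = 1.13e-05). Ankrd63 had a change of -1.38 (SE 0.36, adjusted p = 0.00839), not called without sham array 1 (-1.11, adjusted p = 0.061). Fibcd1 had 5.51, 5.81 and 6.73 in the knockout MCAO hemispheres, against 6.01, 7.72 and 7.72 in the knockout sham hemispheres, its sham array 1 lying among the MCAO arrays. Its change of -1.23 (SE 0.41, adjusted p = 0.0309) was not called without sham array 2 (-0.95, adjusted p = 0.175) or sham array 3 (-0.95, adjusted p = 0.187). Ccn2, a matricellular protein also made by deep cortical neurons, rose by 1.08 (SE 0.19, adjusted p = 0.000451); 2 genes were called higher without MCAO array 1.

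For genes of the striatum the sham arrays disagreed among themselves. The mean of 16 genes of medium spiny neurons relative to the sham mean was between -1.27 and -0.29 in the MCAO arrays, against 0.99 in sham array 1, -0.55 in sham array 2 and -0.44 in sham array 3. Of these genes 3 were called lower, Rasgrp2, Pde10a and Pde1b (median -0.74), and limma called 0 without sham array 1 (0 also at an unadjusted p under 0.05) and 0 in the range-adjusted fit (3 at an unadjusted p under 0.05). Pde10a, a phosphodiesterase of these neurons, had 8.09, 8.51 and 8.83 in the knockout MCAO hemispheres, against 10.62, 8.97 and 9.20 in the knockout sham hemispheres. Its change of -1.09 (SE 0.34, adjusted p = 0.0251) was -0.58 without sham array 1 (adjusted p = 0.235), and that of Rasgrp2, -1.32 (SE 0.40, adjusted p = 0.0217), was -0.81 (adjusted p = 0.182). Markers of thalamus and hypothalamus also differed between arrays of a group. Their mean was 0.74 and 0.59 in MCAO arrays 3 and 4 and -0.98 to -0.65 in the other MCAO arrays, against 0.68 in sham array 3 and -0.30 and -0.38 in sham arrays 1 and 2. The part of such regional differences in the neuronal results was not tested.

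Among GABAergic genes, 2 of 14 fell and 1 rose (median -0.092, with 2 lower and 1 higher in the range-adjusted fit). The share called in either direction was close to the 25.0% of all genes. Gabrd, an extrasynaptic GABA receptor subunit, had 7.42, 7.76 and 8.89 in the knockout MCAO hemispheres, against 9.47, 8.84 and 8.83 in the knockout sham hemispheres, with a change of -1.18 (SE 0.27, adjusted p = 0.00384), and MCAO array 7 lay inside the sham range. Calb1, calbindin, had a change of -0.80 (SE 0.20, adjusted p = 0.00665). The rise of Npy was lost without sham array 2 or 3.

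Several of the largest falls were of genes outside these groups. Plk5, a polo-like kinase of neurons, had 6.37, 6.56 and 6.77 in the knockout MCAO hemispheres, against 7.55, 7.88 and 7.80 in the knockout sham hemispheres, and all MCAO arrays were below the sham arrays, with a change of -1.16 (SE 0.16, adjusted p = 4.33e-05). Gm6556, a predicted gene, had a change of -1.16 (SE 0.23, adjusted p = 0.000999), lost in the range-adjusted fit (-0.84, adjusted p = 0.0814). Slc22a8, an organic anion transporter of the choroid plexus and vessels, had a change of -1.16 (SE 0.37, adjusted p = 0.0272), not called without sham array 2 (-1.09, adjusted p = 0.104) or 3 (-1.11, adjusted p = 0.104). Fads2, a fatty acid desaturase, had 6.71, 9.19 and 9.44 in the knockout MCAO hemispheres, against 9.81, 9.86 and 9.73 in the knockout sham hemispheres, its change of -1.14 (SE 0.41, adjusted p = 0.0461) being -0.96 without MCAO array 2 (adjusted p = 0.0796), -1.18 without MCAO array 4 (adjusted p = 0.0508), and not called without any 1 of the sham arrays (adjusted p = 0.105, 0.132 and 0.12 for arrays 1 to 3). Ido1, which breaks down tryptophan, had a change of -1.12 (SE 0.36, adjusted p = 0.0274), not called without sham array 1 (-0.74, adjusted p = 0.188) or sham array 3 (-1.27, adjusted p = 0.0517). The range-adjusted fit also ended the calls of Slc22a8 (-1.41, adjusted p = 0.0913), Fads2 (-1.01, adjusted p = 0.296) and Ido1 (-1.003, adjusted p = 0.228). The actin covariate ended them too (adjusted p = 0.0507, 0.119 and 0.145). With only the 10 knockout arrays in the fit, Fads2 was not called (-1.14, adjusted p = 0.128).

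Cell death and p53 target genes rose in 11 of 18 and fell in 0 (median 0.59; 9 kept without each knockout array, 6 higher in the range-adjusted fit). Cdkn1a, the p21 inhibitor of the cell cycle, had 9.88, 10.82 and 11.38 in the knockout MCAO hemispheres, against 8.50, 7.73 and 7.63 in the knockout sham hemispheres. The lowest MCAO array was above the highest sham array, and the change was 2.67 (SE 0.28, adjusted p = 2.48e-06). Gadd45g and Gadd45a, stress sensors of DNA damage, rose by 1.73 (SE 0.26, adjusted p = 8.65e-05) and by 1.22 (SE 0.21, adjusted p = 0.000312). Pmaip1, the death protein NOXA, and Casp8, an initiator caspase, rose by 1.72 (SE 0.25, adjusted p = 7.72e-05) and by 1.33 (SE 0.20, adjusted p = 7.28e-05).

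Genes of axon regeneration, which injured neurons are known to switch on, rose in 8 of 18, while Tubb3 and Gap43 fell (median 0.4; 5 rises kept without each knockout array, 3 higher and 3 lower in the range-adjusted fit). Both falls were lost without sham array 2 and without sham array 3, and 1 was kept without sham array 1, MCAO array 2 or MCAO array 5. Gal, the neuropeptide galanin, had 5.90, 8.33 and 8.72 in the knockout MCAO hemispheres, against 6.57, 6.20 and 6.39 in the knockout sham hemispheres. MCAO array 7 lay below every sham array and the other MCAO arrays above them, and the change was 1.65 (SE 0.41, adjusted p = 0.00651). Tubb2b, a neuronal tubulin, rose by 0.92 (SE 0.20, adjusted p = 0.00237), a call that ended in the range-adjusted fit (0.63, adjusted p = 0.141).

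Glucocorticoid-responsive genes rose in 10 of 19 and fell in 0 (median 0.45; 9 higher in the range-adjusted fit). Of the genes that rose, Lcn2, Mt2, Cdkn1a, Ddit4 and Errfi1 are also counted in groups above. Sgk1, a kinase that corticosterone induces, had 10.24, 11.33 and 11.54 in the knockout MCAO hemispheres, against 9.58, 9.30 and 9.41 in the knockout sham hemispheres, and it rose by 1.75 (SE 0.22, adjusted p = 1.12e-05). Pdk4, which switches off pyruvate dehydrogenase, rose by 1.21 (SE 0.20, adjusted p = 0.000286), and Fkbp5 by 1.05.

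Cholesterol synthesis genes rose in 9 of 16 and fell in 0 (median 0.4), but 4 rose without sham array 1, 5 without sham array 2 and 4 in the range-adjusted fit; 1 was called lower without MCAO array 4. Hsd17b7 rose by 0.87 (SE 0.17, adjusted p = 0.000811) and the demethylase Cyp51 by 0.64 (SE 0.14, adjusted p = 0.00284). Msmo1 had 9.46, 10.40 and 10.63 in the knockout MCAO hemispheres, against 9.56, 9.69 and 9.62 in the knockout sham hemispheres, and it rose by 0.66 (SE 0.16, adjusted p = 0.00654). Insig1, which senses sterols, rose by 0.65 (SE 0.16, adjusted p = 0.00518). In Msmo1, Insig1 and Cyp51 the lowest MCAO array lay within or below the sham range.

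Of 28 adrenergic and cyclic AMP genes, the pathway the deleted receptor feeds, 6 rose and 2 fell, a share close to the 25.0% of all genes that were called, with a median of -0.029 that turned to 0.013 when arrays were centred. Crem, a cyclic AMP response factor, had 7.77, 7.97 and 8.15 in the knockout MCAO hemispheres, against 7.24, 7.02 and 6.80 in the knockout sham hemispheres. Its MCAO arrays were all above the sham arrays, with a change of 0.96 (SE 0.17, adjusted p = 0.00034). Adcy7, an adenylyl cyclase, had 7.04, 7.45 and 8.24 in the knockout MCAO hemispheres, against 6.08, 6.21 and 6.24 in the knockout sham hemispheres, and it rose by 1.30 (SE 0.25, adjusted p = 0.000883). Pde4b, which breaks down cyclic AMP, rose by 0.81 (SE 0.16, adjusted p = 0.00102). The range-adjusted fit called 2 higher and 2 lower, and ended the calls of Adcy7 (0.74, adjusted p = 0.121) and Pde4b (0.49, adjusted p = 0.111). The falls were of Pde7b and Akap5. Both were lost without sham array 1, MCAO array 2 or MCAO array 5, and 1 was kept without sham array 2, sham array 3, MCAO array 1 or MCAO array 6.

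Of 20 oligodendrocyte and myelin genes 4 rose and 2 fell, with a median of 0.071 that turned to -0.011 on repeated quantile normalization. The share called was close to the 25.0% of all genes. Cldn11, the tight junction protein of myelin, had 10.22, 10.60 and 10.97 in the knockout MCAO hemispheres, against 9.51, 9.11 and 8.72 in the knockout sham hemispheres. The groups did not overlap, and it rose by 1.52 (SE 0.16, adjusted p = 2.97e-06). The number higher was 7 without MCAO array 7 and 1 without sham array 2 or 3, and the number lower was 0 without sham array 2 or 3 and 1 without sham array 1, MCAO array 2, 5 or 6. Those lower were Gpr17 and Cspg4 of precursor cells. The range-adjusted fit called 1 higher and 2 lower. Mitochondrial oxidative phosphorylation genes showed 1 rise (Cycs, 0.42) and 0 falls among 21 in limma's fit (median 0.064, which was below 0, at -0.062, on repeated quantile normalization and also below 0 with the actin or range covariate), and the rise was lost without sham array 2 or 3 and in the range-adjusted fit.

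Of 22 genes of cell division and replication 7 rose, and Tpx2 of the spindle fell (median 0.085; 6 rises kept without each knockout array, 4 higher in the range-adjusted fit). Pcna, the sliding clamp of DNA polymerase, had 10.85, 11.17 and 11.29 in the knockout MCAO hemispheres, against 10.31, 10.19 and 10.27 in the knockout sham hemispheres. It stood above the sham arrays in every MCAO array and rose by 0.88 (SE 0.12, adjusted p = 5.27e-05). The helicase subunits Mcm4 and Mcm6 rose by 0.70 (SE 0.11, adjusted p = 0.000174) and by 0.93 (SE 0.20, adjusted p = 0.00196); the call of Mcm6 ended in the range-adjusted fit (0.61, adjusted p = 0.136). The fall of Tpx2 was lost without sham array 2 or 3.

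The 7 knockout MCAO arrays differed among themselves in the size of the response. The mean of the matrix genes relative to the sham mean was 2.21 in array 4, 1.92 in array 3, 1.82 and 1.77 in arrays 6 and 1, 1.18 and 1.16 in arrays 5 and 2, and 0.73 in array 7. The chemokine means ran from 1.65 in array 4 to 0.44 in array 2, with array 7 at 0.72. The heat shock group had another order, with its highest mean, 1.57, in array 7 and its lowest, 0.83, in array 2. The array with the smallest matrix response thus had the highest mean of the chaperones, as the plot of group means by array shows. Single chaperones differed in this. In array 7 Hspa1a (12.02) and Hspa1b (13.13) had their highest MCAO values, and Hspb1 (12.37) and Bag3 (8.54) their lowest. Arrays 2 and 5, and arrays 1 and 6, are the pairs described above as nearly alike.

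**Figure D4:**
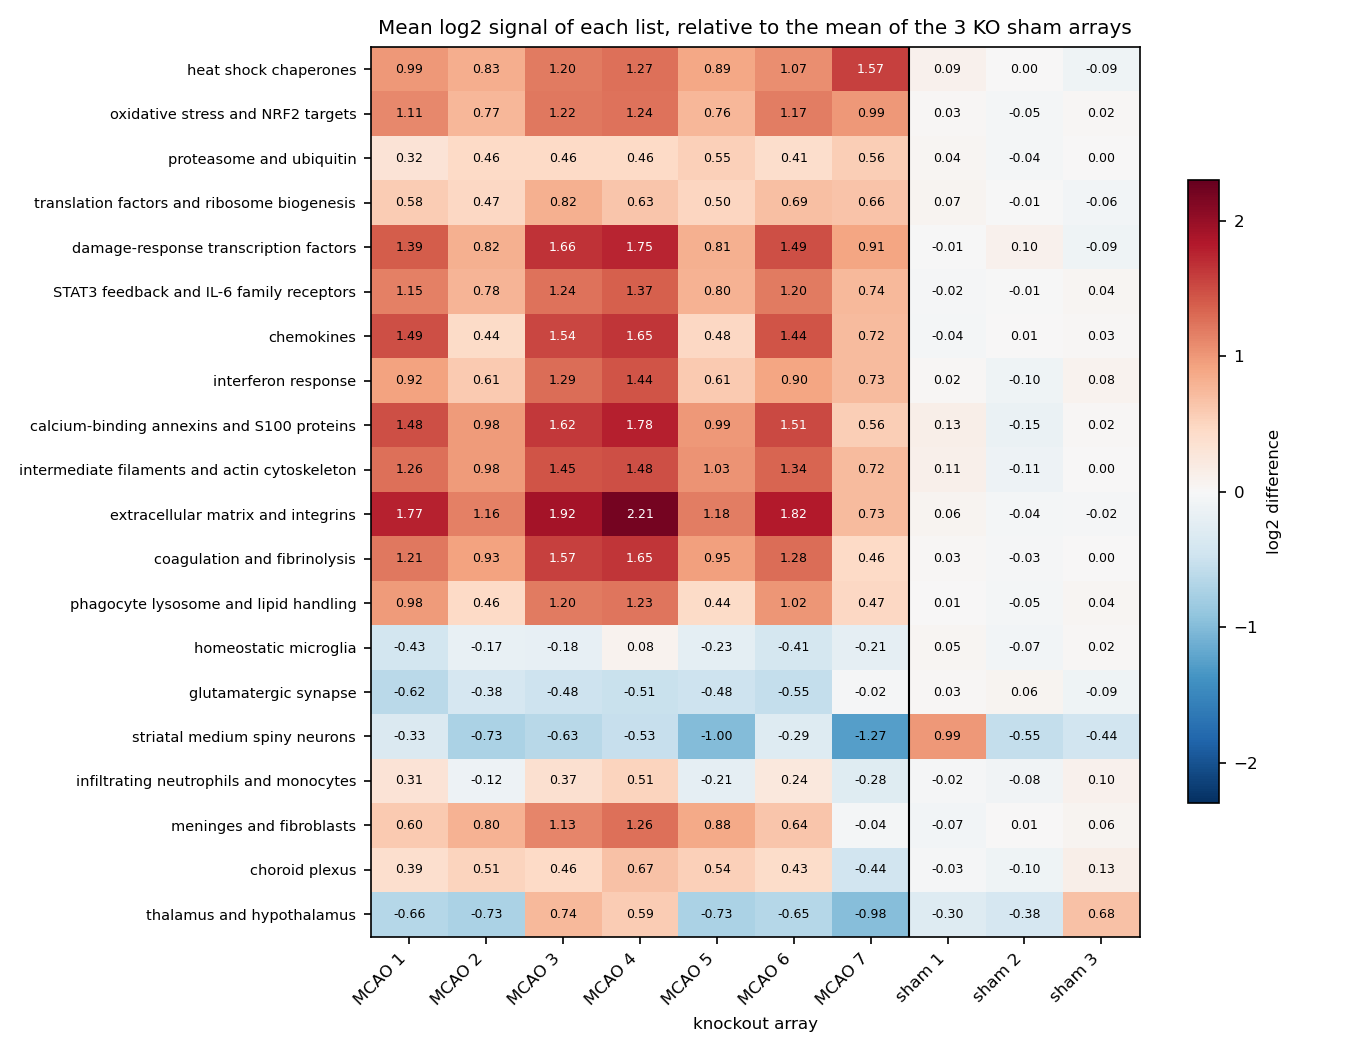
Mean log2 level of selected gene groups (printed in each cell and coloured) in each knockout array relative to the mean of the 3 knockout sham arrays, with the 7 MCAO arrays left of the 3 sham arrays. Extracellular matrix stands at 2.21 in MCAO array 4 and 0.73 in MCAO array 7, and heat shock chaperones at 1.27 and 1.57 in the same arrays.

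Some called genes varied widely over the knockout MCAO arrays. Il6 had an SD of 1.99 over the 7 arrays, with 6.39 in array 7, 5.08 and 4.79 in arrays 2 and 5 and 9.18 and 9.25 in arrays 3 and 4. Il11 had an SD of 1.60, Prg4 1.37, Cd14 1.33, S100a8 1.33, Mmp3 1.32 and Lgals3 1.26. Tfpi2, a matrix-bound protease inhibitor, had 4.59, 6.71 and 7.56 in the knockout MCAO hemispheres, against 3.70, 3.96 and 4.23 in the knockout sham hemispheres (SD 1.32 over the MCAO arrays). All MCAO arrays of Tfpi2 were above the sham arrays, with a change of 2.08 (SE 0.51, adjusted p = 0.006) that was not called in the range-adjusted fit (2.27, adjusted p = 0.0525).

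The response was also set against that of wild type hemispheres, which had their own 3 sham arrays. In wild type, 1579 genes rose (8.68%) and 1322 fell (7.27%). Both genotypes had 935 genes higher and 281 lower. The change differed between the genotypes for 1744 genes (9.59%), 744 of them with a change more positive in the knockout (4.09%) and 1000 more negative (5.50%), and 1144 of them were also called in the knockout. This test depended on the sham arrays and on the settings: without knockout sham array 3, limma called 0 genes, with 4253 at an unadjusted p under 0.05, and in the range-adjusted fit it called 0, with 1017 at an unadjusted p under 0.05. Without knockout sham array 2 the number was 173, with the actin covariate 8 and after repeated quantile normalization 337.

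Of the proteasome genes, in the knockout 15 of 17 rose (median 0.48) and in wild type 0 rose (median 0.067), and the change differed for 7, all more positive in the knockout. The genes of the brightest signal bin, which starts at a mean of 9.07 against a median of 11.1 for the proteasome genes, had a median change of 0.14 in the knockout and -0.1 in wild type. Of 16 neutrophil and monocyte markers, 5 had a change more negative in the knockout, against 5.50% of all genes. The median change of these markers was -0.2 in the knockout and 0.31 in wild type, where 2 rose and 0 fell. They are dim, with a median signal of 5.63. In the dimmest bin of genes the median change was -0.16 in the knockout and 0.12 in wild type, and in the next bin -0.077 and 0.13. The part of signal level in these differences was not tested. Psmc4 changed by 0.68 in the knockout and -0.07 in wild type (difference 0.75, adjusted p = 0.0186). The differences of Psmd12 and Psmd2 were 0.43 and 0.39. In the translation group the change of Npm1 was 0.86 in the knockout and 0.13 in wild type (difference 0.73, adjusted p = 0.018), and that of Ddx21 was 1.32 in the knockout and 0.43 in wild type (difference 0.88, adjusted p = 0.0235). Manf, Creld2 and Dnajb9 rose in the knockout, against changes of -0.01, -0.09 and 0.13 in wild type.

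Among stress, cytokine and microglial genes the difference had both signs. Hspa1b changed by 3.95 in the knockout and 2.22 in wild type (difference 1.74, adjusted p = 0.0235). Its near-identical copy Hspa1a changed by 4.05 in the knockout and 4.15 in wild type (difference -0.09, adjusted p = 0.923), so the probe sets of the pair gave unlike values. For Hspb1 the changes were 4.05 in the knockout and 4.16 in wild type (difference -0.11, SE 0.29, adjusted p = 0.815). P2ry12 fell in both, by 1.62 in the knockout and 2.71 in wild type (difference 1.09, adjusted p = 0.0475). Gpr34 changed by -0.82 in the knockout and -2.39 in wild type (difference 1.57, adjusted p = 0.0182); the knockout change itself was not called without sham array 1 or 3, as given above. Slc2a5 changed by -0.89 in the knockout and -0.14 in wild type (difference -0.75, adjusted p = 0.032). Cd8a, the CD8 alpha chain, changed by -0.56 in the knockout and 0.24 in wild type, with dim signals of 6.42 in the knockout MCAO arrays and 6.98 in the knockout sham arrays, and its knockout call ended in the range-adjusted fit (-0.24, adjusted p = 0.228).

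Saa3, an acute phase serum amyloid, had the most negative difference among genes called in the knockout. Its signals were 6.55, 8.84 and 9.08 in the knockout MCAO hemispheres, against 6.87, 6.62 and 6.81 in the knockout sham hemispheres. MCAO array 7 was below every sham array and the others were above, with a change of 1.49 in the knockout and 3.66 in wild type (difference -2.17, SE 0.51, adjusted p = 0.0198). Boll, a germ cell RNA-binding protein, E2f5, a cell cycle factor, and Aif1l, an actin-binding protein, followed with differences of -1.30, -1.26 and -1.18. Nfkb2 had a difference of -1.04, from a probe set that the other one opposed. Both further probe sets of E2f5 were called opposite to the one used, so it too has no settled direction (0.16 when averaged, adjusted p = 0.162).

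The most positive differences among genes called in the knockout were, besides Hspa1b and Gpr34, those of Lrif1, a nuclear receptor cofactor, Abtb2, a BTB domain protein, and Qtrt2, a tRNA-modifying enzyme subunit (1.49, 1.46 and 1.43). The knockout change of Abtb2, 0.89, was not called without sham array 2 (0.91, adjusted p = 0.0601) or sham array 3 (0.67, adjusted p = 0.144). It was also not called when all probe sets were averaged (0.21, adjusted p = 0.139). In the range-adjusted fit the knockout changes of Abtb2 (0.30, adjusted p = 0.613), Lrif1 (0.51, adjusted p = 0.188), Qtrt2 (0.42, adjusted p = 0.249), Boll (-0.44, adjusted p = 0.142), E2f5 (-0.30, adjusted p = 0.473) and Aif1l (-0.34, adjusted p = 0.343) were not called.

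**Figure D5:**
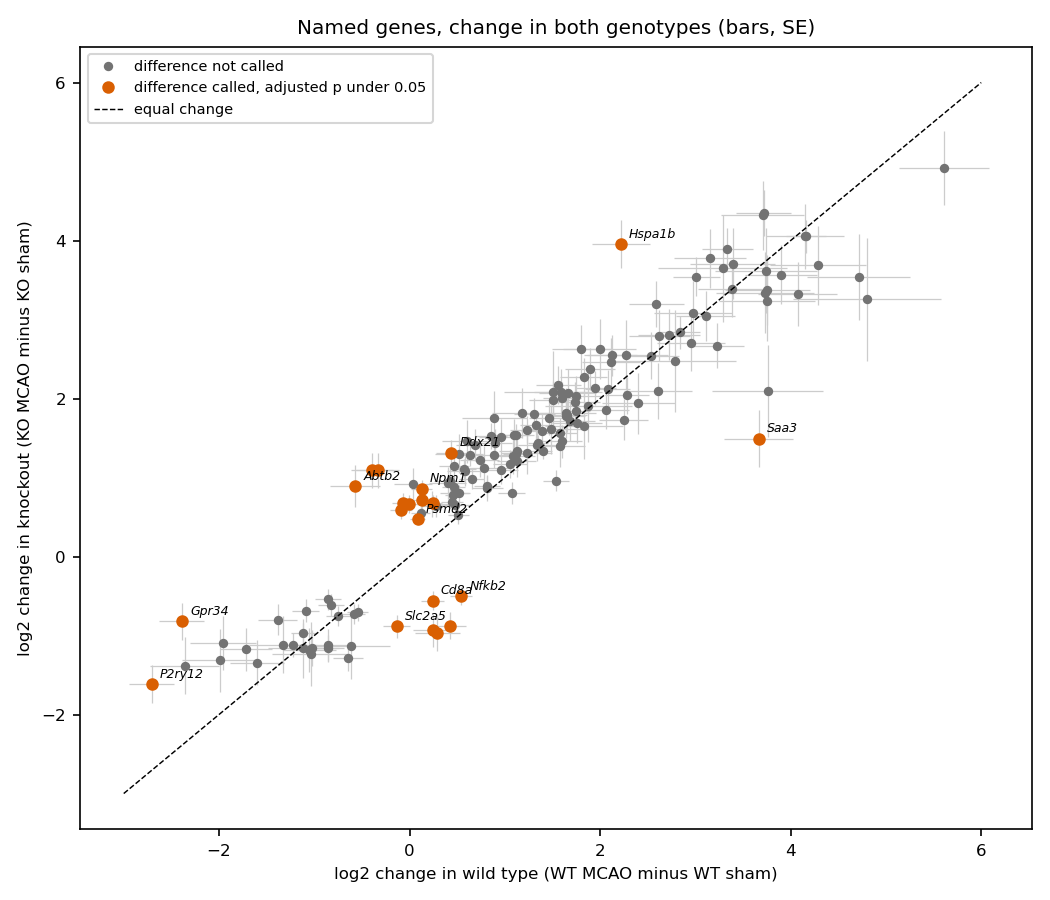
Log2 change (MCAO minus sham) in the knockout on the vertical axis against that in wild type on the horizontal axis for each gene described in the text, with standard errors as bars, a dashed line of equal change, genes whose difference was called in orange, and some genes labelled. Hspa1b lies above the line, at 3.95 in the knockout against 2.22 in wild type, as does Gpr34, at -0.82 in the knockout against -2.39 in wild type, and Saa3 lies below it, at 1.49 in the knockout against 3.66 in wild type.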

How the data were processed

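Total RNA of the hemisphere was labelled by in vitro transcription and hybridised to Affymetrix mouse arrays, per the labels' protocols. The authors deposited log2 values made with RMA, per the submitters' processing notes; its version is not given in the sources used here. The 20 operated arrays were normalized together and apart from the naive arrays, per the labels. RMA includes quantile normalization, but the deposited values of the knockout MCAO and knockout sham arrays still differed in interquartile range, as given above. Of 45101 probe sets, 34945 had 1 gene symbol in GEO's platform annotation, 932 had several and 9160 none, and the last were left unnamed; 34741 symbols were updated through RefSeq. Each of 18193 genes was represented by its brightest probe set, judged by the mean of the 20 operated arrays; 9010 genes had several.

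The fit was made with limma 3.58.1 in R 4.3.3 on all 20 arrays in 4 groups, with lmFit, eBayes and Benjamini-Hochberg adjustment at 0.05; the difference between genotypes was a contrast in the same fit. The script was tested on simulated data. The number of arrays limits the precision. The members and gene lists were chosen with earlier results of these data known, and no list was tested as a set. Some genes belong to several lists, so the counts of different lists are not separate observations. Named genes were the 20 largest called rises and 15 largest called falls, up to 5 called genes of each list in each direction, by smallest p, the 8 called genes with the largest SD over the 7 knockout MCAO arrays, and the 5 largest differences from wild type in each direction among called genes. Other list members are named as examples, chosen after their values were seen. The gene deleted in the knockout is not reported here, so the genotype labels were not checked with it. Same-numbered arrays of the 2 knockout groups did not vary together (correlations of their deviations -0.0599, 0.0819 and 0.0566), so the numbers were not taken as pairs. Alternatives changed the arrays fitted, the moderation, the dim genes, the probe sets, the scaling, array weights, quality covariates, the replicate number as a block, the threshold, and each array left out.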

Additional observations from a re-analysis of the deposited data

Results flagged for a closer look

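In 23 of 213 groups of the 7 knockout MCAO arrays that were examined, 1 array stood apart by Dixon's gap criterion, and in each of the 23 it was array 7. Chance flags about 1 in 20 groups of independent values. That rate does not apply here, because arrays 1 and 6, and 2 and 5, were nearly alike. Some genes were also named for their spread over these same arrays. Array 7 had the lowest log2 signal for Srxn1 (10.51), Mt2 (12.99), Il1r1 (7.68), Hpgd (5.50), Cd44 (8.98), Prg4 (6.59), Gfap (12.36), S100a10 (8.95), Gal (5.90), Sgk1 (10.24) and Pdk4 (7.21). It was also lowest for the sterol genes Hsd17b7 (8.29), Cyp51 (8.39), Insig1 (8.44) and Msmo1 (9.46), and for Ccn2 (9.22) and Pcna (10.85). It had the highest signal for the neuronal genes Stx1a (11.49) and Gabrd (8.89). The mean level relative to the sham arrays stood apart in array 7 for the hypoxia, glycolysis and iron genes (0.21), the glutamatergic synapse genes (-0.02), the astrocyte markers (0.12) and the choroid plexus markers (-0.44). The genes share that array, so these are not separate observations.

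The change after MCAO differed between knockout and wild type, by limma's test of the difference, for 21 of the genes named. Over all genes it differed for 1744 (9.59%). Some of the 21 were named for this very difference, so their calls were fixed in advance and the count is no finding. The knockout change minus the wild type change was 1.74 for Hspa1b (against -0.09 for its near-identical copy Hspa1a, which was not called), 1.09 for P2ry12 and 1.57 for Gpr34. It was 0.68 for Manf, 0.59 for Dnajb9 and 0.68 for Creld2 of the endoplasmic reticulum, 0.43 for Psmd12, 0.39 for Psmd2 and 0.75 for Psmc4 of the proteasome, and 0.88 for Ddx21 and 0.73 for Npm1 of the nucleolus. Lrif1, Abtb2 and Qtrt2 had differences of 1.49, 1.46 and 1.43. Negative differences were found for Saa3 (-2.17), Boll (-1.30), E2f5 (-1.26), Aif1l (-1.18), Nfkb2 (-1.04), Cd8a (-0.80) and Slc2a5 (-0.75). None of these differences was called without knockout sham array 3, where limma called 0 genes and 4253 had an unadjusted p under 0.05.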

How the results depend on the processing

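Of 159 named genes, 129 kept their direction and call under every alternative counted here. Most were named for a large change or a small p in these data, so this share was high by selection. Over all 18193 genes, 751 rises (4.13%) and 125 falls (0.687%) were kept under the same alternatives, of 2925 and 1620 called. The filter on dim genes, which removes some named genes, and the stricter threshold, which some named genes do not pass, were left out of these counts. Of 3647 recomputed gene changes 3568 were kept, 77 were no longer called and 2 reversed: averaged over all probe sets, Nfkb2 was 0.0570 and E2f5 0.16, where the other probe sets of each gene were called in the opposite direction. Of 2300 recomputed counts of list members 1975 were within 1.5 times and 325 were further off. The number of genes called in the knockout was 7239 with array weights, 2856 with the actin covariate, 2170 at an adjusted p under 0.01 and 1663 in the range-adjusted fit. The number higher was 1714 at the stricter threshold and 1025 in the range-adjusted fit. The number lower was 700 without dim genes, 3016 with array weights, 871 with the actin covariate, 456 at the stricter threshold and 638 in the range-adjusted fit. The genotype difference was called for 729 genes without dim genes, 337 after repeated quantile normalization, 4100 with array weights, 8 with the actin covariate, 757 with the Gapdh covariate, 0 at the stricter threshold and 0 in the range-adjusted fit. Leaving out 1 array at a time gave 2337 to 4946 genes called, 1750 to 3095 higher, 498 to 1851 lower, and 0 to 2692 for the genotype difference. The share of calls that were higher was 64.4% and became 80% without dim genes and 79% at the stricter threshold. With the replicate number as a block, 3926 genes were called in the knockout and 1619 for the genotype difference; the numbers share no more than a label. The cause of these movements was not tested, apart from fewer genes or arrays where the alternative removes them. Signal over background limits what can be said of dim genes, and the 3 sham arrays limit small changes.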
